A study of Mus musculus with 2 samples.

Results

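The nuclear genes of the mitochondrial respiratory chain were examined in DNase-seq maps of mouse lung. They were the protein-coding autosomal genes of the GENCODE mouse annotation whose symbols begin with Nduf, Uqcr, Sdha, Sdhb, Sdhc, Sdhd or Atp5, or with Cox4 to Cox8 and at least 1 more character. The rule gave 94 of 20780 protein-coding autosomal genes: 42 of complex I, 8 of complex II, 8 of complex III, 19 of complex IV and 17 of complex V. Cox7b, Ndufa1 and Ndufb11 have fitting symbols but lie on X and were outside it, as was Cyc1, the cytochrome c1 gene of complex III, by its name. Ndufa4 and Ndufa4l2 were counted with complex IV, where the Ndufa4 protein is found.

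The respiratory chain passes electrons from NADH (complex I) or succinate (complex II) by way of ubiquinone, complex III and cytochrome c to oxygen at complex IV. Complexes I, III and IV pump protons as they do so, and complex V, the ATP synthase, uses the proton gradient to make ATP. Most subunits are encoded in the nucleus and made in nearly every cell type, and some subunits of complex IV have a second gene that is known from muscle, testis or other tissues.

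DNase-seq finds accessible chromatin by cutting nuclei with DNase I and sequencing the cut ends. Lungs of B6CASTF1/J males, an F1 hybrid, were taken at 14 days of age and gave 2 libraries of 1 group. Replicate 2 is labelled as a pool of 3 males, and for replicate 1 the labels give the sex but no pool. The donor record is the same for the pair, and the labels do not tell whether any animal went into both, so the spread between them may be technical. Strain, sex, age and tissue were shared by both libraries, and no treatment or genotype is named. Since a single group allows no contrast, counts and medians of the members are set beside those of all protein-coding autosomal genes and no test was made.

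The read depth of the libraries is unknown. The smaller of the authors' peak lists held 94786 peaks in replicate 1 and 77403 in replicate 2, and 326313 and 252174 footprints (short stretches inside accessible DNA that were protected from cutting) were listed. Markers of cell types were looked up as well. A promoter peak was found in both libraries at 6 of 7 genes of surfactant-making AT2 cells and 5 of 6 of flat AT1 cells. It was also found at 5 of 5 of ciliated cells, 6 of 6 of endothelium and 5 of 5 of fibroblasts. The counts were 0 of 3 for secretory cells, 2 of 5 for macrophages, 1 of 5 for lymphocytes and 0 of 3 for hepatocytes. Of all protein-coding autosomal genes 65.0% had one, so lists this short describe the tissue only roughly. Whole tissue mixes cell types, so fewer cells with an open promoter and less opening per cell cannot be told apart.

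Almost every respiratory chain promoter was accessible. A promoter peak, here a peak within 1 kb of any annotated transcript 5′ end, was present at 89 of 94 members in replicate 1, where 68.0% of all genes had one, and at 87 in replicate 2, where 65.5% did. In both libraries 87 members had one, against 65.0% of all genes, and 5 had one in neither. The shares were 94.7% in replicate 1 (exact Clopper-Pearson 95% interval 88.0 to 98.3) and 92.6% in replicate 2 (85.3 to 97.0), intervals that cover the counting of genes only. The 87 members of replicate 2 were all among the 89 of replicate 1.

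The peaks were also strong within their libraries. The score of a peak has no stated scale, so each peak was given its percentile among all peaks of its own library. The members' highest promoter peaks had a median percentile of 95.7 in replicate 1 and 95 in replicate 2, against 90.3 and 90 for all genes with a promoter peak. In both libraries 70 of the 87 members stood above percentile 90, which is 80.5%, against 48.3% of all genes open in both. Between libraries the median difference in percentile was 1.19 points, against 1.80 for all genes, and 83 of 87 members lay within 5 points. Most members lie close to percentile 100, which leaves little room for a difference. As a description across genes that share libraries, Spearman's rho between the libraries was 0.804 over the 87 members and 0.964 over all 13500 genes open in both. The widest gap was at Ndufa10, an accessory subunit of complex I, with 98.2 in replicate 1 and 92.2 in replicate 2.

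**Figure D1:**
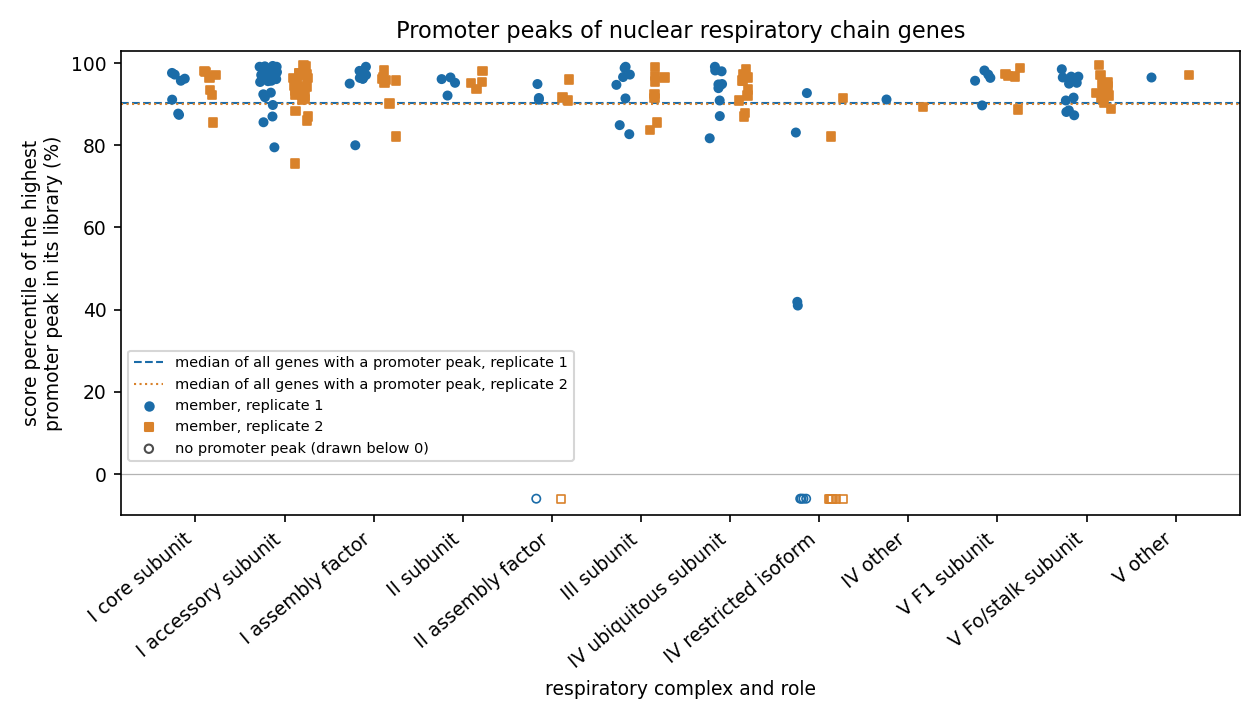
Score percentile (vertical axis, in percent) of the highest promoter peak of each of the 94 members, by complex and role (horizontal axis). Circles are replicate 1, squares replicate 2, open symbols below 0 are members without a promoter peak, and the lines mark the medians of all genes, 90.3 and 90. All members without a peak in a library are restricted isoforms of complex IV except 1 assembly factor of complex II.

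All 42 complex I genes had a promoter peak in both libraries, with medians of 96.4 and 95.1. The 7 core subunits, which carry the flavin and iron-sulfur clusters that move the electrons, had medians of 95.7 and 96.5. The 27 accessory subunits had 97.1 and 94.3, and the 8 assembly factors 96.3 and 95.9, and members of each role were spread more widely than these medians differ. Ndufv3, an accessory subunit of the flavoprotein module (ENSMUSG00000024038.17), ranked highest, with a peak at chr17:31519961-31520180 in both libraries at percentiles 99.3 and 99.6. Ndufa7, an accessory subunit, stood at 99.1 in each library. Ndufa13, an accessory subunit also known as GRIM-19, stood at 98.8 and 99.3, but its highest peaks were centred at +867 bp from the nearest 5′ end in replicate 1 and at -763 bp, upstream, in replicate 2 and did not overlap. The lowest were Ndufc2, a subunit of the membrane arm, at 79.5 and 75.6, and Ndufaf1, an assembly factor of the membrane arm, at 80.0 and 82.1. Both of these were below the medians of all genes in both libraries.

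Complex II had a promoter peak in both libraries at 7 of 8 genes. Its 4 subunits ranked close together: Sdhb, the iron-sulfur subunit, stood at 95.2 and 98.1, Sdha, the flavoprotein that oxidises succinate, at 96.5 and 95.1, and Sdhc, a membrane anchor, at 96.1 and 95.4. Sdhd, the other anchor, stood at 92.1 and 93.7. The assembly factors Sdhaf4 (91.5 and 91.6) and Sdhaf2, which helps attach the flavin to Sdha (91.1 and 90.9), were lowest among those with a peak.

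The member of complex II without a promoter peak was Sdhaf1, an assembly factor that helps insert iron-sulfur clusters into Sdhb (ENSMUSG00000074211.4). Its 1 GENCODE 5′ end lies at position 30323895 of chromosome 7, on the minus strand, and the 1 kb on either side held 0 bases that passed a false discovery rate of 0.05 in either library. A peak at chr7:30322341-30322560 stood 1335 bp from that 5′ end, in both libraries, at percentiles 97.7 and 98.0. It covers the 5′ end that RefSeq gives for the gene, position 30322375. E130208F15Rik overlaps the Sdhaf1 gene model on the other strand. With RefSeq 5′ ends added to those of GENCODE, an alternative chosen after seeing the data, 88 members had a promoter peak in both libraries, and Sdhaf1 was the 1 gained.

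All 8 complex III genes were accessible in both libraries, with medians of 95.6 and 94. Uqcrq, a small subunit next to cytochrome b, stood at 98.8 and 99.1, and Uqcrfs1, the Rieske iron-sulfur protein, at 99.1 and 96.9. Uqcrc1, a core protein of the matrix side, stood at 97.2 and 96.5. Its companion core protein Uqcrc2 was lower, at 84.9 and 85.5, and Uqcrb, the ubiquinone-binding protein, was lowest, at 82.7 and 83.7.

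All 17 complex V genes were accessible as well, with medians of 95.7 and 95. Atp5b, the catalytic beta subunit, stood at 98.2 and 98.8. Atp5d, the delta subunit of the central stalk, stood at 97.2 and 97.4, with a peak centred within 100 bp of a GENCODE 5′ end. In both libraries that peak lay 675 and 715 bp from the RefSeq 5′ ends of Atp5d and was also the highest of Cbarp. Atp5g1, 1 of 3 genes for the same subunit of the proton-driven c ring, stood at 96.7 and 99.6, its sister genes Atp5g2 at 96.7 and 97.1 and Atp5g3 at 91.6 and 91.5. The Atp5g1 peak was the widest of any member, 500 bp in replicate 1 and 400 bp in replicate 2. Atp5j2 (subunit f), at 88.1 and 90.3, and Atp5l (subunit g), at 87.3 and 88.8, were lowest by the mean of the libraries. In replicate 2 Atp5a1, the alpha subunit, was lowest, at 88.7, and it stood at 89.7 in replicate 1.

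Of the 7 members that lacked a promoter peak in 1 library or both, complex IV held 6, and all 6 were restricted isoforms. Its 10 ubiquitous subunits had a promoter peak in both libraries, with a median of 94.7 in each. Cox6a1 (99.1 and 98.6), Cox5b (98.0 and 97.4) and Cox6c (98.2 and 95.8), small nuclear-encoded subunits around the catalytic core, were highest by the mean of the libraries, although Cox7a2 stood above Cox6c in replicate 2, at 96.5. Cox7c, at 81.7 and 87.0, was lowest of the ubiquitous subunits. Cox7a2l, a protein that links complexes III and IV, stood at 91.2 and 89.3. Of the 8 restricted isoforms, 4 had a promoter peak in replicate 1 and 2 of these had one in replicate 2.

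The muscle and testis isoforms differed in the smaller peak list. Cox7a1, the heart and skeletal muscle form of Cox7a2 (ENSMUSG00000074218.3), had a peak over its 5′ end at percentiles 92.7 and 91.5, with 3 and 6 footprints. Cox6b2, a testis form of Cox6b1 (ENSMUSG00000051811.14), had one at 83.1 and 82.1, with 3 footprints in each library. Cox6a2 and Cox8b, known from heart and skeletal muscle, and Cox7b2 and Cox8c, known from testis, had none in either library. The larger list held a weak peak over the Cox6a2 5′ end in both libraries, at percentile 16.6 of that list in each, and over that of Cox8b in replicate 1, at 26.3. With that list 4 restricted isoforms were open in both libraries, against 2. The ubiquitous partners stood at 94.8 and 96.5 (Cox7a2), 87.1 and 87.9 (Cox6b1) and 94.9 and 95.8 (Cox8a). Cox7b, the partner of Cox7b2, lies on X.

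Markers of muscle, brown fat and germ cells are given beside these isoforms. A promoter peak was present in both libraries at 2 of 9 cardiac muscle markers (Tnni3 and Ryr2) and none at Myh6, Myh7, Tnnt2, Actc1, Nppa, Mybpc3 or Myl7. Of the skeletal muscle markers, 2 of 8 had one (Ckm and Tnnt3), and Myh1, Myh2, Myh4, Acta1, Myf5 and Myod1 had none. Neither of the 2 had its highest peak centred within 100 bp of an annotated 5′ end, in either library. Within 1 kb of the representative 5′ end, Tnni3 and Ckm had 0 bases at a false discovery rate of at most 0.001 in both libraries. Ryr2 had 342 and 277 such bases, and Tnnt3 234 and 226. Smooth muscle and pericyte markers had one at 7 of 8 in replicate 1 and 6 in replicate 2. Of the brown fat markers 3 of 5 had one in both libraries (Cidea, Prdm16 and Ppargc1a), and Ucp1 and Dio2 had none. Of the spermatogenic markers 1 of 6 had one, Dazl, at 91.6 and 90.8. The share of all genes with one in both libraries was 65.0%. The part of such cells in the peaks at Cox7a1 and Cox6b2 was not tested.

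The isoforms known to respond to low oxygen had weak peaks, in replicate 1 only. Cox4i2, the second form of Cox4i1, is known from lung (ENSMUSG00000009876.13). It had a peak at chr2:152754064-152754192 in replicate 1 at percentile 41.9, which a footprint met by 1 base, and none in replicate 2, where the nearest peak was 11476 bp away. Its partner Cox4i1 stood at 93.9 and 92.1. Ndufa4l2 (ENSMUSG00000040280.10) had a peak at chr10:127514838-127514970 in replicate 1 at percentile 41.0 and none in replicate 2, while Ndufa4 stood at 90.9 in each library. The larger peak list of replicate 2 held a peak 21 bp from the Ndufa4l2 5′ end, and none within 1 kb of Cox4i2. The peaks of both genes in replicate 1 were the lowest of any member.

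Accessible bases were also counted without a peak call. The authors list bases by the false discovery rate of their cutting, up to 0.05, and those with a rate of at most 0.001 within 1 kb of the representative 5′ end were counted. The 10 ubiquitous subunits of complex IV had 452 to 1036 such bases in replicate 1 (median 730) and 372 to 982 in replicate 2 (median 722). The restricted isoforms had 0 to 634 (median 63) and 0 to 379 (median 0). The groups overlapped through Cox6b2, with 634 and 339 bases, and Cox7a1, with 410 and 379. Cox4i2 had 126 and 0, Ndufa4l2 133 and 0, Cox6a2 0 and 49, and Cox8b, Cox8c and Cox7b2 0 in both libraries. All genes had a median of 465 and 370, and all members 808 and 717.

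**Figure D2:**
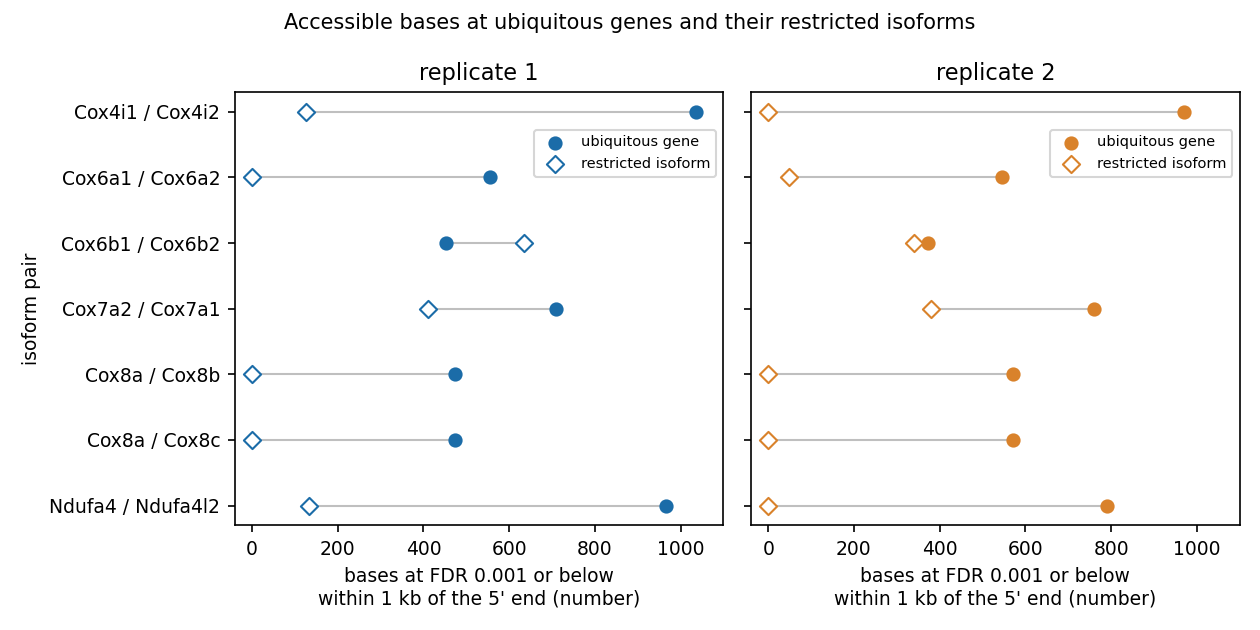
Bases with a false discovery rate of at most 0.001 within 1 kb of the 5′ end (horizontal axis, number) for each ubiquitous gene (filled circles) and its restricted isoform (open diamonds), in replicate 1 (left) and replicate 2 (right). The isoform has fewer bases in every pair and library except Cox6b1 and Cox6b2 in replicate 1, with 452 and 634.

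The promoters of most isoform pairs differ in their CpG dinucleotides. The sequences of 3 pairs with a large difference are shown. Cox4i2 is added as an isoform with many CG, though fewer than its own partner Cox4i1. All were chosen after their counts were seen. Each sequence is the 100 bases before the representative 5′ end on the strand of the gene, from the mm10 reference (GRCm38), with every CG in capitals. They overlap no annotated exon. The reference is that of C57BL/6J, 1 parent strain of the hybrid.
Cox6a1 (chr5:115348982-115349081, minus strand): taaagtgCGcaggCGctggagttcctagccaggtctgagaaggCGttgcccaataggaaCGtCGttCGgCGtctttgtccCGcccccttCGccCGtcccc
Cox6a2 (chr7:128206388-128206487, minus strand): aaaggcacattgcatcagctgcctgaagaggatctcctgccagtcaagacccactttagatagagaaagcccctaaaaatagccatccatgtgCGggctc
Cox7a2 (chr9:79759879-79759978, minus strand): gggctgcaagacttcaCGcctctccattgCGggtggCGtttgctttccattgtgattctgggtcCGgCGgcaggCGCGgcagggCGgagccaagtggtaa
Cox7a1 (chr7:30184044-30184143, plus strand): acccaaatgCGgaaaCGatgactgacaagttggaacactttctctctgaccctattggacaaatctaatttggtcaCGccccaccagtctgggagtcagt
Cox8a (chr19:7217617-7217716, minus strand): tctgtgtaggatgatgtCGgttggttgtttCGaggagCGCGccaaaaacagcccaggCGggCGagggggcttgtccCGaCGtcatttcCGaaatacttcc
Cox8b (chr7:140900447-140900546, minus strand): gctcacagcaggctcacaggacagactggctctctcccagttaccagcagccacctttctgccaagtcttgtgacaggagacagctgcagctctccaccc
Cox4i2 (chr2:152754073-152754172, plus strand): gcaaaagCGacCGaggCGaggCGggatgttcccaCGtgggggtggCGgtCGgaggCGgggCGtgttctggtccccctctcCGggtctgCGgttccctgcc
Cox6a1 holds 10 CG here and Cox6a2 1, Cox7a2 8 and Cox7a1 3, and Cox8a 9 and Cox8b 0. Cox4i2 holds 11, more than the ubiquitous genes shown, and had a weak peak in replicate 1 only, while its partner Cox4i1 holds 17. Of the isoforms not shown, Cox8c holds 6 and had no peak, Cox6b2 holds 4 against 8 in Cox6b1, and Ndufa4l2 holds 2 against 6 in Ndufa4. The number of CG and an open promoter thus did not go together at every isoform.

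Over the window from 250 bases before to 50 after the 5′ end, a promoter was called CpG-rich where the ratio of observed to expected CpG was at least 0.6 and the GC content at least 50%. Of the members 63 of 94 were CpG-rich (67.0%), against 45.2% of all genes. All 63 had a promoter peak in both libraries, against 93.7% of all CpG-rich genes (95.6% in replicate 1 and 93.9% in replicate 2). Of the 31 CpG-poor members, 26 had a peak in replicate 1 and 24 in replicate 2 (83.9% and 77.4%), against 45.3% and 42.1% of all CpG-poor genes. The highest CpG-poor member by the mean of the libraries was Ndufb10, a membrane arm subunit of complex I (ratio 0.353, percentiles 99.2 and 96.4), named after its values were seen. Others above percentile 95 in both libraries included Cox6c, which has a ratio of 0.832 but a GC content of 38.0%, Sdhb (ratio 0.360, percentiles 95.2 and 98.1) and Uqcrc1 (ratio 0.536, percentiles 97.2 and 96.5). The 8 restricted isoforms were all CpG-poor, with ratios of 0.115 to 0.564, and the 10 ubiquitous subunits had 0.543 to 1.20.

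**Figure D3:**
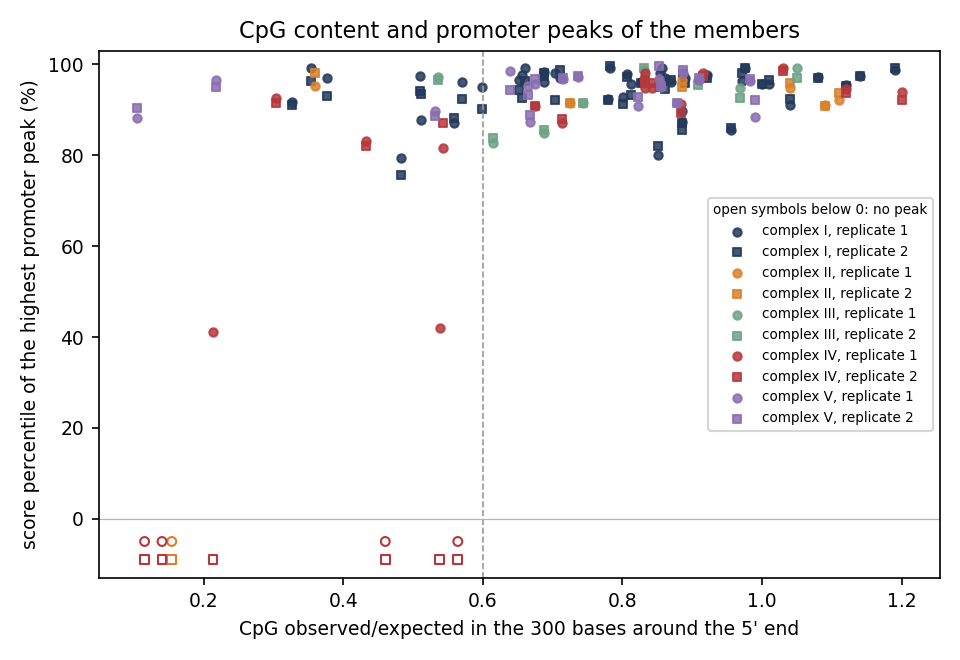
CpG observed/expected in the 300 bases around the 5′ end (horizontal axis) and the score percentile of the highest promoter peak (vertical axis, in percent) of each member, coloured by complex, with circles for replicate 1 and squares for replicate 2. Members without a peak are open symbols below 0, and all of them lie left of the line at 0.6.

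The peaks lay at the transcript starts. The centre of the highest peak was within 100 bp of an annotated 5′ end at 89.9% of the open members in replicate 1 and 89.7% in replicate 2, against 68.5% and 68.7% of all open genes. The exceptions included Uqcrh, the hinge protein of complex III, with its peak centre at -350 bp in both libraries, and Cox7a2l, at -271 and -261 bp. The highest peaks of the libraries overlapped at 83 of 87 members and not at Atp5j, Ndufa11, Ndufa13 and Ndufaf3, so percentiles of these 4 belong to different sites. The 50 bases at each peak centre occurred once in the reference genome at all 89 and 87 open members.

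Many members shared their accessible site with a neighbour. At 32 of the 89 open members in replicate 1 (36.0%) and 33 of 87 in replicate 2 (37.9%) the highest promoter peak was also that of another protein-coding gene, against 17.9% and 18.5% of all open genes. Ndufa7 shared its peak with Rps28, a ribosomal protein gene, Ndufs1, a core subunit of complex I, with Eef1b2, a translation elongation factor, and Cox4i1 with Emc8 and Gm27021. Uqcrq shared its peak with Gdf9, a growth factor of the oocyte. These examples were chosen after their values were seen. For such members the peak cannot be assigned to 1 of the genes.

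Every open member had at least 1 footprint that overlapped its highest promoter peak in both libraries, where 99.1% and 98.3% of all open genes did. The median was 4 footprints in each library, the same as for all genes. Atp5g1 had the most by the mean of the libraries, 9 and 11, followed by Ndufa6, an accessory subunit of complex I, with 8 and 7, Atp5g2 with 8 and 6 and Ndufa12, another accessory subunit, with 8 and 6. Footprints covered a median of 40.5% and 38.8% of the members' peaks, against 33.3% in each library for all genes. Among peaks between percentiles 90 and 100 the members had 42.5% and 40.5% and other genes 40.8% in each, so the sign differed between libraries. Between percentiles 80 and 90 the members were lower in both, with 29.0% against 32.0% and 30.5% against 31.4%. The higher share over all peaks was thus not seen at like scores. Of the 403 footprints of replicate 1 in members open in both libraries, 85.4% met a footprint of replicate 2, against 76.2% for all genes. In the other direction the shares were 85.3% and 78.8%. These shares were not compared at like scores, and the members' peaks scored higher.

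Matches to binding motifs of factors known for respiratory genes were counted in the window from 250 bases before to 50 after the 5′ end, on both strands. The letters were CGCATGCG for NRF1 (nuclear respiratory factor, a regulator of respiratory chain genes), CCGGAAG for ETS factors such as GABP, AAGATGGC for YY1, GGGCGGG for SP and KLF factors, TGACGTCA for CREB, AGCCAAT for NF-Y, TCAAGGTCA for the estrogen-related receptors, ACTACAATT for ZNF143 and THAP11, and CACGTGAC for an E-box. A match is a description of sequence and does not show that a factor bound.

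The NRF1 motif stood in 8 of 94 windows (8.51%), against 2.40% of all genes and 4.57% of CpG-rich genes. These 8 sites are shown because a footprint covered the whole match at each of them in both libraries. Each is 30 bases of the mm10 reference on the strand of the gene, with the match in capitals, and they follow in order of mean percentile.
Cox6a1 (chr5:115349101-115349130, minus strand): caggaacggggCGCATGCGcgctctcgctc
Ndufaf4 (chr4:24897960-24897989, plus strand): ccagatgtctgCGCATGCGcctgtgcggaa
Ndufa11 (chr17:56717692-56717721, plus strand): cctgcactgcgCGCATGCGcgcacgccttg
Atp5g2 (chr15:102671070-102671099, minus strand): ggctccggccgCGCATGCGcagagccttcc
Ndufaf5 (chr2:140170652-140170681, plus strand): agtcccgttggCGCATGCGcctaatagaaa
Atp5k (chr5:108434430-108434459, minus strand): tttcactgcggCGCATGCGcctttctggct
Uqcr11 (chr10:80406808-80406837, minus strand): gatcgccttcaCGCATGCGctatacgtctg
Atp5l (chr9:44920965-44920994, minus strand): aaaaccaataaCGCATGCGcatttccccca
The footprints at Cox6a1, which was the highest complex IV member, covered chr5:115349106-115349126 in both libraries. Of all genes with an NRF1 match, 88.4% and 88.8% had a footprint over at least part of it. The 8 genes span 4 complexes: 3 subunits of the ATP synthase (Atp5g2, Atp5k and Atp5l), an accessory subunit (Ndufa11) and 2 assembly factors (Ndufaf4 and Ndufaf5) of complex I, Uqcr11 of complex III and Cox6a1. Their first bases lay from -241 to +39 relative to the 5′ end. Atp5k and Uqcr11 were named after their values were seen.

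The YY1 motif stood in 10 windows (10.6%), against 3.11% of all genes and 5.03% of CpG-rich genes, and lay mostly in a narrow range of positions. In 9 of the 10 it ran in the direction of the gene and began 10 to 36 bases after the 5′ end. In 8 of these 9 the ATG inside the motif was the annotated start codon, among them Ndufa3, Ndufa9, Ndufb8 and Sdhc. Over all genes 167 of 427 matches in that direction (39.1%) had their ATG at a start codon, and 64.0% of all matches ran in that direction. Of the 427, 247 began at or after the 5′ end, at 0 to 42 bases. The 39.1% thus includes upstream matches, which the 9 do not. A footprint overlapped the match in both libraries at 3 members, of which 2 are shown with the match in capitals. At no member did a footprint cover the whole match in both libraries, and at the 2 shown it covered only part in each.
Ndufaf8 (chr11:120098933-120098962, plus strand): aggcagggcccAAGATGGCggcgccctcga
Ndufs7 (chr10:80249462-80249491, plus strand): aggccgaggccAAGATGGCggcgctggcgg
Ndufs7 is a core subunit of complex I next to the ubiquinone site, and Ndufaf8 is an assembly factor. In replicate 1 a footprint overlapped the YY1 match at 6 of 10 members and in replicate 2 at 3, against 44.4% and 40.4% of all genes with a match.

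The remaining motifs differed less from CpG-rich genes or were few, apart from that of SP and KLF factors. The ETS motif stood in 18 windows (19.1%), against 11.4% of all genes and 19.8% of CpG-rich genes (23.8% of CpG-rich members), with a footprint over it in both libraries at 10 members. The SP and KLF motif stood in 29 windows (30.9%), against 34.1% of all genes. Among CpG-rich windows it was in 22 of 63 members (34.9%), against 58.3% of all CpG-rich genes. Cox4i1 held 6 of the 39 matches at members, and each of the 6 had a footprint in both libraries. Some of the 6 overlap each other and share a footprint, so they are not all separate sites. The NF-Y motif stood in 13 windows (13.8%, against 8.91% of all genes and 11.0% of CpG-rich genes) and the CREB motif in 4 (4.26%, against 2.48% and 4%). The receptor motif was found at Atp5g3 and Sdhd, 2.13% against 0.404%, with a footprint at Atp5g3 in replicate 2 only and at Sdhd in neither. The E-box was found at Ndufa7 alone, 1.06% against 2.68%.

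The motif of ZNF143 and THAP11 was found at Atp5d and Uqcr10, a small complex III subunit, 2.13% against 0.592% of all genes. Both matches lay whole inside a footprint in both libraries. The sites are shown with the match in capitals and were chosen after their values were seen.
Atp5d (chr10:80142182-80142211, plus strand): aggcgaagaaaACTACAATTcccagaatga
Uqcr10 (chr11:4704383-4704412, minus strand): atacagagaaACTACAATTcccataaagca

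**Figure D4:**
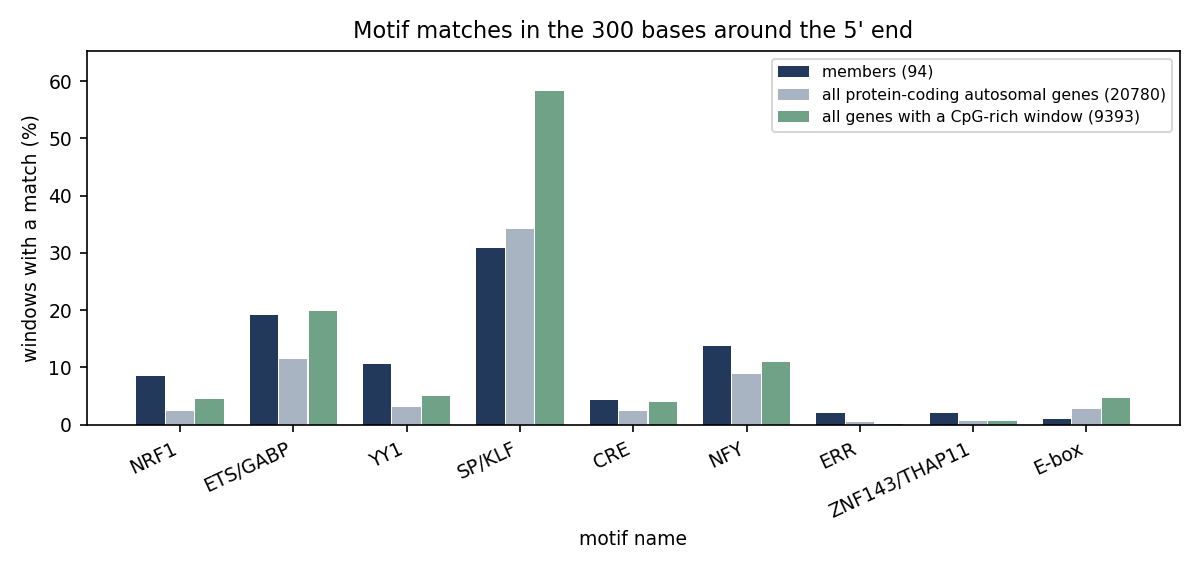
Share of 300-base windows with a motif match (vertical axis, in percent) by motif (horizontal axis) for the 94 members, all 20780 genes and the 9393 genes with a CpG-rich window. The members' bars for NRF1 (8.51%) and YY1 (10.6%) stand above both others. So do their bars for NF-Y, CREB, the estrogen-related receptors and ZNF143, some of which rest on few members. Their bars for SP and KLF (30.9%) and the E-box stand below both.

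**Figure D5:**
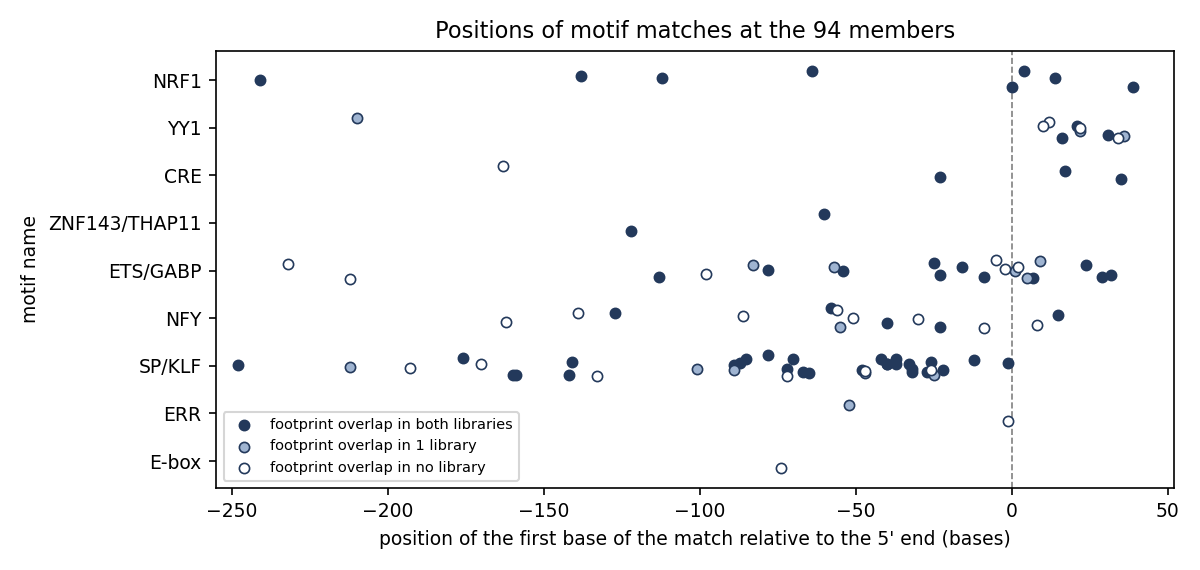
Position of the first base of each match relative to the 5′ end (horizontal axis, bases) at the 94 members, by motif (vertical axis). Dark points had a footprint in both libraries, light points in 1 and open points in none. The NRF1 points are all dark, and 9 of 10 YY1 points lie 10 to 36 bases after the 5′ end.

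Genes of the same pathway outside the symbol rule were accessible without exception. A promoter peak was present in both libraries at 58 of 58 listed genes, against 65.0% of all genes and 93.7% of CpG-rich genes. Of the 58 genes 43 were CpG-rich (74.1%). The 58 held 15 nuclear regulators and mitochondrial DNA factors, 12 electron carriers and ubiquinone enzymes and 16 assembly factors of complex IV. The rest were assembly factors, 6 each of complexes III and I and 3 of complex V. The median percentile of the 58 was 94.3 in each library. Cycs, which encodes the cytochrome c that carries electrons from complex III to IV, stood at 99.7 in each library. Ppargc1a, a coactivator that raises mitochondrial biogenesis in brown fat and muscle, was lowest, at 29.2 and 20.6. Promoters of cytosolic ribosomal proteins (73 of 76 in both libraries, medians 96.6 and 95.8) and of proteasome subunits (36 of 38, medians 94.8 and 94.4) stood near those of the respiratory chain.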

How the data were processed

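Peaks, footprints and per-base false discovery rates of 2 DNase-seq libraries were used as the authors deposited them, on mm10 per the listings deposited with the files. For the aligner and the callers of peaks and footprints, name and version were not given in the sources used here. Deposited lists of peaks carry a signal value on an unstated scale, which was used only as a rank within its own list. The deposited footprints carry a constant p-value threshold of 0.01, and the false discovery rates of the authors (p-value scale) are listed up to 0.05. No counts are given, so read depth is unknown.

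Gene starts were those of GENCODE M21. A representative 5′ end was taken by APPRIS rank, support level and length. Each library was read by itself from its smaller peak list, and overlaps, percentiles, motif matches and exact binomial intervals were computed in Python 3.11.15 with numpy 2.4.6, pandas 2.3.3 and scipy 1.17.1, and plots in matplotlib 3.10.9. Interval searches, 5′ end sets and percentiles were tested on simulated data. Of the members, 75 had a RefSeq promoter entry (GRCm38.p6). A CpG-rich window had a ratio of at least 0.6 and a GC content of at least 50%. Named members were those without a peak in a library, the 3 highest and 2 lowest of each complex and isoform pairs. Also named were those with the most footprints and up to 8 with an NRF1 or YY1 match that a footprint overlapped in both libraries. The members and lists were chosen with earlier results of these data known. Alternatives changed the distance, the 5′ ends, the peak list, the score limit, the overlap, the ranking and the motif window. Members on chromosome 18 have values and no sequence, and some single genes are not reported here.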

Additional observations from a re-analysis of the deposited data

How the results depend on the processing

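No paired analysis was possible because the series holds 1 group and no contrast. The number of members open in both libraries, 87, ranged from 85 (outermost 5′ end only) to 90 (a distance of 2500 bp, which gained Cox6a2, Ndufa4l2 and Sdhaf1). Without replicate 1 it was 87 and without replicate 2 it was 89. For complex IV these were 13 and 15. Restricted isoforms open in both libraries numbered 2, and 4 with 2500 bp or with the larger list (Cox6a2 and Ndufa4l2 added in each case). The median percentile moved to 94.4 in replicate 2 with 500 bp, to 94.3 in replicate 2 with the outermost 5′ end, to 97.2 and 96.4 with the larger list and to 87.4 and 85.0 when ranked only among peaks near gene starts, where fewer weak peaks stand below the members. Counting only motif matches that a footprint overlapped left 6 and 3 members for YY1 and 5 and 6 for NF-Y. It left 0 and 1 for the receptor motif and 0 and 0 for the E-box. In a window around the peak centre the receptor motif was at 1 member in replicate 1 and ZNF143 at 1 in each library. Of 152 alternative values 133 stayed close to the main value. For shares close meant inside the exact interval, and for medians within the standard deviation between the libraries. For counts it meant a wide fold range, so counts near the total, such as 87, could hardly have moved. The tally is therefore no measure of how firm those counts are. The unknown read depth limits what a missing peak shows: at Cox4i2 and Ndufa4l2 opening was not detectable in the smaller list of replicate 2.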

Other observations

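Among the neighbours that shared their highest promoter peak with a member were other genes of mitochondria. Atp5j, which encodes coupling factor 6 of the ATP synthase, shared its peak in both libraries with Gabpa, which encodes the DNA-binding subunit of GABP, an ETS factor known to act at respiratory genes. Percentiles were 88.5 in replicate 1 and 92.1 in replicate 2, although different peaks were highest in the libraries. Ndufb5, an accessory subunit of complex I, shared its peak with Mrpl47, a mitochondrial ribosomal protein gene, in both libraries, and Ndufs6, also of complex I, with Mrpl36 in replicate 2. Sdhd shared its peak with Timm8b, a chaperone of mitochondrial import, in both libraries. These pairs were chosen after their values were seen.

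Besides Sdhaf1, the RefSeq 5′ end was 538 bp from the nearest GENCODE 5′ end at Ndufa13, the next largest distance among the 75 members with an entry. A peak 240 bp from that position in replicate 1 stood at percentile 98.8, and one 220 bp from it in replicate 2 at 98.0.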
